A study of Nannochloropsis oceanica with 18 samples.

Results

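The comparison asked which transcripts of Nannochloropsis oceanica IMET1, a unicellular marine alga that stores oil, differed between very low CO2 and high CO2 after 6 h. Both groups came from mid-log cultures of the same strain grown in continuous light with 5% CO2, washed, put into fresh medium and held for 1 h at 5% CO2. One set then went to 0.01% CO2 (VLC) and the other stayed at 5% CO2 (HC). VLC at 6 h and HC at 6 h had 2 mRNA libraries each, of 18 in the series (2 in each of 9 groups), and the libraries of a group came from separate cultures. Each condition had 3 cultures, and each culture was sampled at all times. Which of them gave each library is not given in the sources used here, so libraries of different times may share a culture. The tests treat all libraries as independent, and p-values measure only the spread between these libraries. Values are FPKM, which counts sequenced fragments relative to transcript length and to all mapped fragments. Of 9756 genes in the tables, 7932 had a mean of at least 10 FPKM in either 6 h group and were tested, 7544 of them in both groups, 227 only in VLC and 161 only in HC.

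Dissolved CO2 at very low supply limits Rubisco, the enzyme that fixes carbon in the Calvin cycle. Many algae then run a CO2-concentrating mechanism (CCM), in which transporters move bicarbonate inwards and carbonic anhydrases interconvert bicarbonate and CO2 near Rubisco. When CO2 is scarce, Rubisco also takes O2, and the phosphoglycolate made in that side reaction is salvaged by photorespiration, a route through chloroplast, peroxisome and mitochondrion that releases CO2 and ammonia.

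The 4 libraries were alike in overall shape. Each had 7713 to 7755 genes at 10 FPKM or more, a median of 24.2 to 24.4 FPKM, and 35 to 56 genes listed at 0. The tables hold no read counts, so depth is given here in relative terms only, as read from the FPKM values. In low genes FPKM moved in steps, and the step sizes put VLC replicate 1 at 1.21 times, VLC replicate 2 at 0.812 times and HC replicate 2 at 1.02 times the depth of HC replicate 1. The median tested gene stood at a log2 VLC/HC of -0.06.

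A gene was called higher or lower in VLC where limma, fitted to log2(FPKM + 1) of all 18 libraries, gave an adjusted p of 0.05 or less and the change was at least 2-fold. At 6 h 146 genes were called higher (1.84% of those tested) and 20 lower (0.252%). With no minimum fold, 967 genes passed the adjusted p (12.2%), 621 higher (7.83%) and 346 lower (4.36%). Genes that passed the adjusted p were thus mostly higher, while the median gene moved little. Only 3066 of the 7932 tested genes had a log2 ratio above 0. The added 1 makes log2 ratios of genes near 0 FPKM too small, and ± below gives the standard error of the fit. Of the 146 higher genes, 99 had at least 10 FPKM in both groups, while 47 passed that filter only through VLC and so had to differ. Likewise 7 of the 20 lower genes passed only through HC. Any gene below with a mean under 10 FPKM in 1 group, called or not, is of this kind, and its p-value is no separate evidence. Changes between 2-fold and 4-fold made up 110 of the higher and 16 of the lower genes, and 7 higher and 2 lower genes changed by 16-fold or more. Both VLC libraries lay above both HC libraries in each of the 146 genes and below both in each of the 20. Across all tested genes the same held in 25.4% (above) and 44.2% (below), so separation of 2 libraries from 2 was common here.

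**Figure D1:**
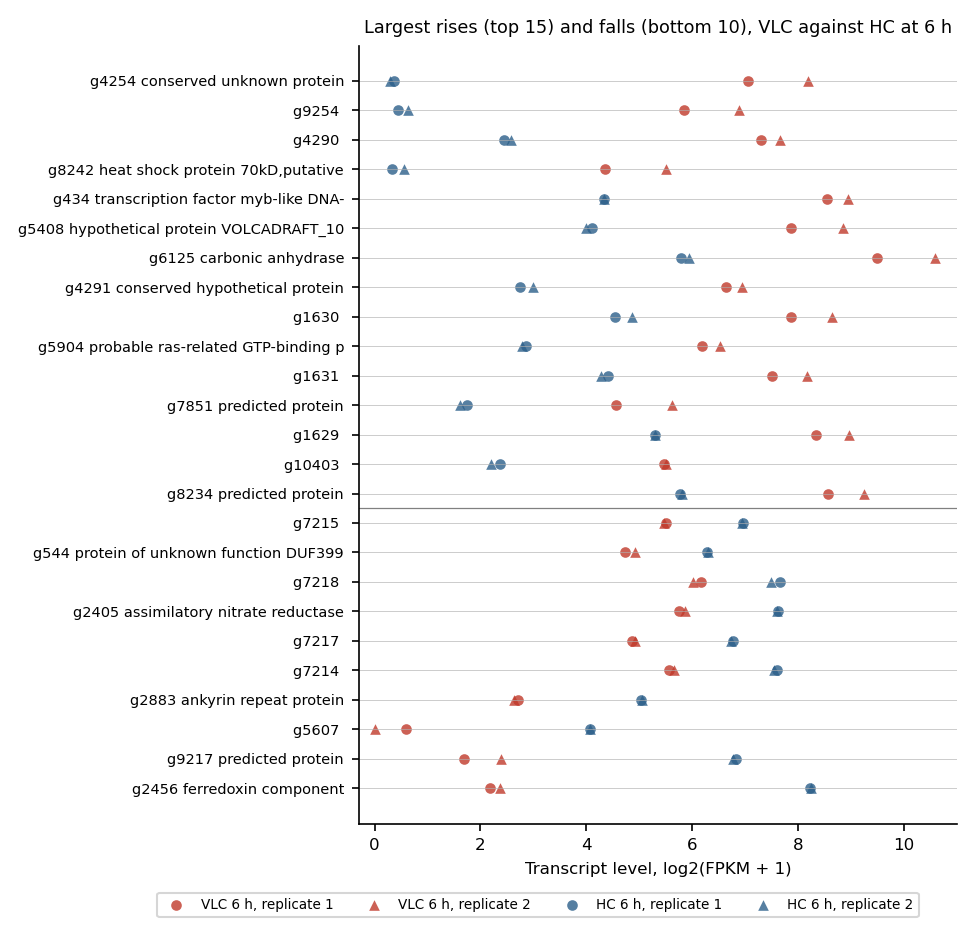
Transcript levels on a log2(FPKM + 1) axis of the 15 genes with the largest called rises (top) and the 10 with the largest called falls (bottom) in the 2 VLC libraries (red) and the 2 HC libraries (blue) at 6 h, circles for replicate 1 and triangles for replicate 2. The HC replicates nearly coincide in most rows, while VLC replicate 2 lies to the right of VLC replicate 1 in the rises.

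Among the genes of inorganic carbon handling, 1 carbonic anhydrase stood out. The carbonic anhydrase g6125 (scaffold 214 of the IMET1 assembly) had 717 FPKM in VLC replicate 1, 1530 in VLC replicate 2, 54.5 in HC replicate 1 and 60 in HC replicate 2. Both VLC libraries were far above both HC libraries, and VLC replicate 2 was more than double replicate 1. Its mean was 19.6-fold higher in VLC (log2 ratio 4.17 ± 0.23, limma adjusted p = 3.7e-08). The other 4 carbonic anhydrases of the study's list, g1084, g2209, g2018 and g4812, had log2 ratios of -0.03, -0.05, 0.00 and 0.09, with standard errors of 0.09 to 0.12.

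Candidate bicarbonate transporters, which import the substrate of the CCM, had smaller ratios. None of the 5 tested members of that list was called, and the median log2 ratio was 0.45. With no minimum fold 3 passed the adjusted p, all higher, against 7.83% of all tested genes. The ABC transporter g6647 had 14.2 and 12.4 FPKM in VLC against 6.91 and 7.65 in HC. All 4 values were low (log2 ratio 0.79 ± 0.09, limma adjusted p = 4.6e-05). This gene, counted among the 3, passed the filter only through VLC and so had to differ. The transporter g9142 had 36.2 and 42.0 FPKM in VLC against 22.9 and 22.8 in HC (log2 ratio 0.75 ± 0.09, limma adjusted p = 4.4e-05). The boron transporter 1 homolog g19 had 44.9 and 66.8 FPKM in VLC against 40.7 and 39.2 in HC, so that only VLC replicate 2 stood clearly apart (log2 ratio 0.45 ± 0.13, limma adjusted p = 0.044). The second such homolog, g1855, and the ABC transporter g6756 had log2 ratios of -0.13 and -0.14. The members g6134 and g9968 stayed below 10 FPKM in all 4 libraries and were not tested.

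The study lists 3 genes under LCIA, a chloroplast envelope protein of the green alga Chlamydomonas that takes part in bicarbonate transport. The gene g544, which the tables annotate only by a domain of unknown function, had 25.4 and 29.2 FPKM in VLC against 77.1 and 77.7 in HC. It fell in both VLC libraries to a like extent (log2 ratio -1.48 ± 0.10, limma adjusted p = 1.6e-07). The gene g6826, annotated as nitrite transporter NAR1, had 59.6 and 65.2 FPKM in VLC against 37.6 and 35.2 in HC, under the fold minimum (log2 ratio 0.76 ± 0.15, limma adjusted p = 0.0042). The third, g545, had a log2 ratio of -0.08 ± 0.10.

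Pyruvate, phosphate dikinase (PPDK) makes phosphoenolpyruvate from pyruvate and supplies the acceptor of the first carboxylation in C4 plants. All 3 genes with that annotation were called higher (1.84% of all tested genes were). They were the only called members of the 10 C4-like genes, whose median log2 ratio was 0.14. The gene g5453 had 533 and 1001 FPKM in VLC against 102 and 103 in HC (log2 ratio 2.82 ± 0.22, limma adjusted p = 1.1e-06). Its neighbour g5454 had 204 and 417 FPKM in VLC against 38.0 and 38.8 in HC (log2 ratio 2.89 ± 0.22, limma adjusted p = 8.3e-07). In both genes VLC replicate 2 held roughly double the level of replicate 1, and neither VLC library approached HC. The third gene, g3407 on scaffold 95, was scarce, with 15.1 and 19.4 FPKM in VLC against 4.68 and 4.55 in HC (log2 ratio 1.69 ± 0.14, limma adjusted p = 2.1e-06). Reads that mapped to more than 1 place were left out by the authors, so stretches shared by PPDK genes would not have been counted.

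The other enzymes that move carbon through 4-carbon acids were not called in the fit with all libraries. Phosphoenolpyruvate carboxykinase (g6884), which releases CO2 from oxaloacetate, came closest, with 223 and 245 FPKM in VLC against 123 and 120 in HC (log2 ratio 0.94 ± 0.13, limma adjusted p = 0.00022), and was called without VLC replicate 1 (log2 ratio 1.01, limma adjusted p = 0.0011). Phosphoenolpyruvate carboxylase (g5140), which fixes bicarbonate, stood at 111 and 116 FPKM in VLC against 102 and 103 in HC (log2 ratio 0.14 ± 0.07). The malate dehydrogenases g7798 and g9301 had log2 ratios of -0.05 and 0.14. The malic enzymes g2252, g3463 and g8325 had -0.22, -0.14 and 0.14.

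Enzymes of photorespiration were higher in VLC through most of the route. Of 10 tested members of the study's list, 3 were called higher, against 1.84% of all tested genes. With no minimum fold 8 passed the adjusted p (all higher), against 7.83%, and the median log2 ratio was 0.86. Phosphoglycolate phosphatase (g10166), which opens the route, had 172 and 242 FPKM in VLC against 50.9 and 49.4 in HC (log2 ratio 2.00 ± 0.11, limma adjusted p = 3.9e-08). Glycolate oxidase (g640), the next enzyme, had 168 and 251 FPKM against 52.2 and 50.1 (log2 ratio 1.99 ± 0.16, limma adjusted p = 1.1e-06). Glutamate:glyoxylate aminotransferase (g3637), which turns glyoxylate into glycine, had 124 and 202 FPKM against 29.1 and 30.4 (log2 ratio 2.37 ± 0.16, limma adjusted p = 2e-07). In these 3 genes both VLC libraries lay at more than 3 times the HC level, with replicate 2 the higher.

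The mitochondrial glycine-to-serine step moved by less. The glycine decarboxylase T-protein g176 had 142 and 192 FPKM in VLC against 83.1 and 82.7 in HC, just under the fold minimum (log2 ratio 0.99 ± 0.14, limma adjusted p = 0.00021). The serine hydroxymethyltransferases g6217 and g1924 had log2 ratios of 0.92 ± 0.10 and 0.80 ± 0.09, the glycine dehydrogenase g1059 had 0.61 ± 0.09 and the glycine cleavage H-protein g260 had 0.34 ± 0.10. Glycerate kinase (g1836), which returns the product to the Calvin cycle, had 0.12 ± 0.11, and g9801, annotated in the tables as a methyltransferase, had -0.08 ± 0.13. The alanine-glyoxylate aminotransferase g6487 stayed below 10 FPKM and was not tested. Without VLC replicate 1 the list had 5 called members, g176 (log2 ratio 1.21, limma adjusted p = 5.1e-05) and g6217 (1.07, limma adjusted p = 8.5e-06) being the added ones, while without VLC replicate 2 it had 3.

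Tetrahydrofolate carries the single carbons released when glycine is cleaved. Formate-tetrahydrofolate ligase (g5846) had 90.4 and 159 FPKM in VLC against 25.6 and 27.4 in HC (log2 ratio 2.14 ± 0.18, limma adjusted p = 1.9e-06). Tetrahydrofolate dehydrogenase/cyclohydrolase (g8540) had 216 and 337 FPKM against 72.0 and 71.2 (log2 ratio 1.90 ± 0.15, limma adjusted p = 1e-06). Both were well separated, and they were the 2 called members of 5 (1.84% of all tested genes were called higher). The methylenetetrahydrofolate reductases g3586 and g6732 leaned the other way, at -0.30 ± 0.09 and -0.32 ± 0.10 (limma adjusted p = 0.053 for each). The ornithine urea cycle, which handles nitrogen, had no called member among 8 and a median log2 ratio of 0.02. Its largest value was that of the glutamate/ornithine acetyltransferase g2594, with 14.7 and 21.2 FPKM in VLC against 10 and 9.89 in HC (log2 ratio 0.77 ± 0.16, limma adjusted p = 0.0045). With an HC mean of 9.96 FPKM, g2594 passed the filter only through VLC.

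**Figure D2:**
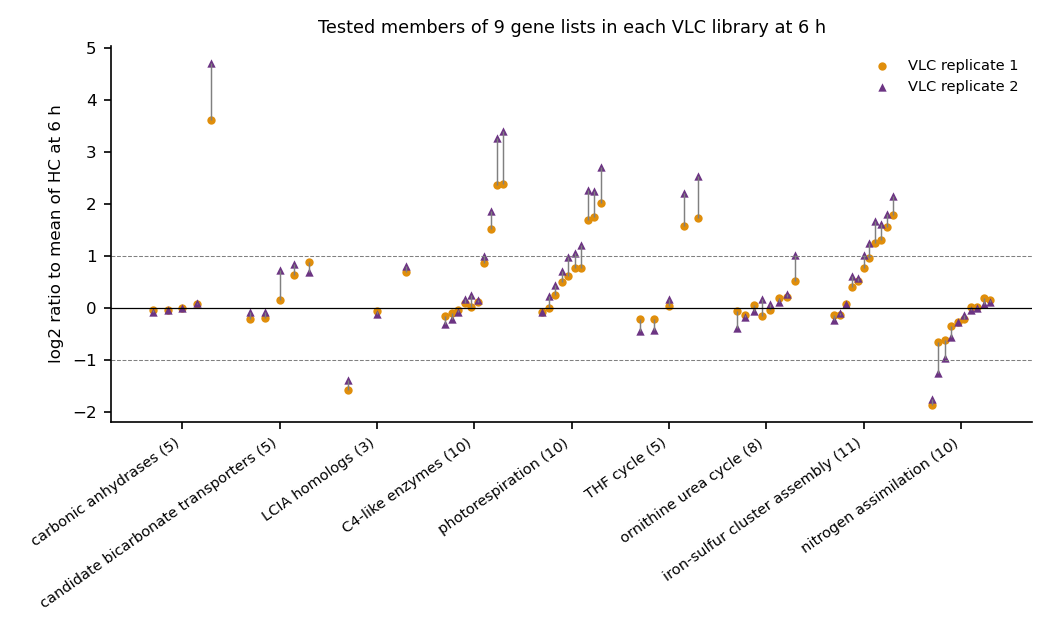
Log2 ratio of each VLC library to the mean of the HC libraries at 6 h for every tested member of 9 gene lists (number of members in parentheses), circles for VLC replicate 1, triangles for VLC replicate 2, a line joining the libraries of a gene, and dashed lines at 2-fold. Members above the upper dashed line are mostly in the carbonic anhydrase, C4-like, photorespiration, THF and iron-sulfur lists, and replicate 2 is the higher there.

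Iron-sulfur clusters are cofactors of photosystem I, of ferredoxins and of many enzymes of respiration and of nitrogen and sulfur assimilation, and dedicated proteins build and insert them. Of 11 tested genes annotated for this assembly, 5 were called higher, against 1.84% of all tested genes. With no minimum fold 8 passed the adjusted p (all higher), against 7.83%, and the median log2 ratio was 0.90. SufD (g877), part of the plastid scaffold complex, had 144 and 186 FPKM in VLC against 41.4 and 40.8 in HC (log2 ratio 1.97 ± 0.17, limma adjusted p = 2.1e-06). The assembly protein g10053 was the most abundant, with 353 and 438 FPKM against 140 and 143 (log2 ratio 1.46 ± 0.08, limma adjusted p = 3.7e-08). The assembly protein g3885, similar to NifU, had 83.2 and 99.1 FPKM against 28.3 and 26.5 (log2 ratio 1.69 ± 0.16, limma adjusted p = 6e-06). In each of these genes VLC replicate 2 was the higher, and both VLC libraries were far from HC.

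The NifU-like scaffold protein g3065, annotated as chloroplast, had 61.1 and 82.1 FPKM in VLC against 25.1 and 25.0 in HC (log2 ratio 1.46 ± 0.11, limma adjusted p = 8.6e-07). The cysteine desulfuration protein g1804 had 108 and 131 FPKM against 56.9 and 51.9 (log2 ratio 1.11 ± 0.12, limma adjusted p = 1.7e-05), and 0.97 without VLC replicate 2, under the fold minimum. The cysteine desulfurase g7640, which supplies the sulfur, reached a log2 ratio of 0.90 ± 0.10, while a second one, g6875, stood at 0.08 ± 0.08. The iron-sulfur cluster exporter annotated as atm1 (g7191) had -0.17 ± 0.13, and the cysteine desulfurase g6139 stayed below 10 FPKM. The co-chaperone Hsc20 (g8492), known from yeast and human cells to act in iron-sulfur cluster transfer, had 46.4 and 57.0 FPKM in VLC against 18.8 and 17.3 in HC (log2 ratio 1.46 ± 0.13, limma adjusted p = 3.7e-06).

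Regulatory genes gave some of the sharpest separations. The myb-like DNA-binding protein g434 had 374 and 489 FPKM in VLC and 19.1 in each HC library, a 22.6-fold difference of means (log2 ratio 4.42 ± 0.12, limma adjusted p = 3.8e-11). Another 5 genes annotated as transcription factors or response regulators were called higher, making 6 of 133 tested (against 1.84% of all tested genes). The median log2 ratio over the list was -0.05. The NAC-type factor g1286 had 58.2 and 76.8 FPKM against 15.1 and 15.8 (log2 ratio 2.05 ± 0.11, limma adjusted p = 2.6e-08). The heat shock transcription factor g7071, of a family that drives chaperone genes, had 77.2 and 100 FPKM against 23.8 and 24.0 (log2 ratio 1.84 ± 0.12, limma adjusted p = 2.1e-07). The response regulator g7710 and the MYB-type genes g1493 and g455 followed, at log2 ratios of 1.84, 1.75 and 1.31.

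Among signalling and folding genes a few had large changes, but few members were called (1.84% of all tested genes were called higher). The serine/threonine protein kinase g7153 had 10.8 and 28.3 FPKM in VLC against 1.51 and 1.36 in HC, with VLC replicate 2 far above replicate 1 (log2 ratio 2.93 ± 0.28, limma adjusted p = 7.6e-06). It and the calcium/calmodulin-dependent protein kinase g5040 (1.29 ± 0.18) were the called ones of 72 protein kinases, and the call of g5040 was lost without VLC replicate 2 (0.91). The ras-related GTP-binding protein g5904, of a family of membrane traffic and signalling switches, had 71.5 and 90.8 FPKM against 6.28 and 5.90 (log2 ratio 3.52 ± 0.33, limma adjusted p = 4.6e-06). Of 86 heat shock proteins and chaperones, 3 were called, among them Hsc20 above, and the list median was -0.05. The 70 kD heat shock protein g8242 was nearly silent in HC, at 0.257 and 0.470 FPKM, and had 19.4 and 44.6 FPKM in VLC (log2 ratio 4.49 ± 0.27, limma adjusted p = 7.1e-08). The small heat shock protein Hsp20 g6268 had 113 and 147 FPKM against 39.3 and 38.1 (log2 ratio 1.71 ± 0.22, limma adjusted p = 0.00013). In this group g7153, g5040, g5904 and g8242 passed the filter only through VLC and so had to differ.

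Among pumps, which set up the ion gradients that drive transport, the plasma membrane hydrogen ATPase g5409 had 395 and 646 FPKM in VLC against 127 and 129 in HC (log2 ratio 1.97 ± 0.17, limma adjusted p = 2.9e-06). The type II D P-type ATPase g6301 was also called higher (1.09 ± 0.14) and the copper-translocating ATPase g2283 lower (-1.12 ± 0.11), of 15 tested. The second plasma membrane hydrogen ATPase, g3507, stood at -0.26 ± 0.08. Further called genes were the ABC transporter g7817 (1.03 ± 0.11) of 39, the proteases g3168 (1.07 ± 0.14) and g8639, a metacaspase (1.12 ± 0.16), of 156, and the superoxide dismutase-like g7580 (1.19 ± 0.18) and the glutathione S-transferase g9049 (1.21 ± 0.20) of 75 oxidant defence genes. The counts for ABC transporters, proteases and oxidant defence genes are near or under the 1.84% called higher over all tested genes. They say nothing about those lists. The pumps had 2 of 15 called higher, against that 1.84%, and 1 called lower, against 0.252%. The called calcium pump g643 (1.20 ± 0.11) is not in that count, since its annotation is cut short and the list words missed it. Without VLC replicate 2 the calls of g6301 (0.82), g7817 (0.87), g3168 (0.86), g8639 (0.89) and g9049 (0.83) were lost.

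The largest rises of all were in genes of unknown function. The conserved unknown protein g4254 (scaffold 127) had 132 FPKM in VLC replicate 1 and 290 in replicate 2, but 0.291 and 0.218 in HC (log2 ratio 7.30 ± 0.29, limma adjusted p = 1.2e-09). The gene g9254, with no annotation, had 56.3 and 117 FPKM against 0.364 and 0.545 (log2 ratio 5.83 ± 0.29, limma adjusted p = 1e-08). Both were close to off in HC, and in both VLC replicate 2 was more than double replicate 1. The unannotated g4290 had 156 and 200 FPKM against 4.42 and 4.94 (log2 ratio 4.97 ± 0.14, limma adjusted p = 3.8e-11). The gene g5408, annotated as a hypothetical protein, had 233 and 460 FPKM against 16.2 and 15 (log2 ratio 4.31 ± 0.24, limma adjusted p = 3.7e-08). Other genes of this kind among the 15 largest rises were g4291 (3.92 ± 0.15), g7851 (3.41 ± 0.29), g10403 (3.20 ± 0.14), g8234 (3.12 ± 0.17) and the neighbours g1629, g1630 and g1631, described below by position. The genes g4254, g9254, g4290, g4291, g7851 and g10403 passed the filter only through VLC and so had to differ. Of the 146 higher genes 49 had no annotation (33.6%), and of the 20 lower genes 10, against 29.1% of all tested genes.

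The falls were few, and 3 of them were near complete. The ferredoxin component g2456, an iron-sulfur protein by its annotation, had 3.54 and 4.15 FPKM in VLC against 299 and 303 in HC (log2 ratio -5.96 ± 0.23, limma adjusted p = 8.5e-10). The predicted protein g9217 had 2.23 and 4.25 FPKM against 112 and 108 (log2 ratio -4.75 ± 0.18, limma adjusted p = 8.5e-10). The unannotated g5607 had 0.506 FPKM in VLC replicate 1, was listed at 0 in replicate 2, and had 15.8 and 15.7 in HC (log2 ratio -3.77 ± 0.22, limma adjusted p = 4.4e-08). In all 3 the VLC libraries were both low and the HC libraries nearly equal. All 3 passed the filter only through HC and so had to differ.

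Assimilatory nitrate reductase g2405, which turns nitrate into nitrite, had 53.0 and 57.3 FPKM in VLC against 195 and 192 in HC (log2 ratio -1.79 ± 0.06, limma adjusted p = 6.1e-10). It was the only called gene among 10 matched by nitrogen assimilation words, which include the folylpolyglutamate synthases g161 and g5566, matched by name only. Over all tested genes 0.252% were called lower. The next enzyme after nitrate reductase, ferredoxin nitrite reductase (g3438), had 486 and 384 FPKM against 733 and 752, under the fold minimum (log2 ratio -0.78 ± 0.09, limma adjusted p = 6.5e-05). The gene g7988, annotated as nitrate reductase 1, had 250 and 164 FPKM against 388 and 393 (log2 ratio -0.94 ± 0.14, limma adjusted p = 0.00051). The ankyrin repeat protein g2883 had 5.52 and 5.18 FPKM against 31.6 and 32.2 (log2 ratio -2.37 ± 0.13, limma adjusted p = 3e-08). The 4 unannotated genes g7214, g7215, g7217 and g7218, which lie close together on scaffold 259, fell by similar amounts, with log2 ratios of -1.96, -1.46, -1.85 and -1.49.

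With 1.84% of all tested genes called higher and 0.252% lower, short lists hold few calls or none, so the lists of photosynthesis, lipid and growth genes are described by their values. With no minimum fold, 7.83% of all tested genes passed the adjusted p higher and 4.36% lower. None of 28 light-harvesting and photosystem genes was called, and their median was 0.21. Among them 27 had a log2 ratio above 0, against 3066 of the 7932 tested genes, and 9 passed with no minimum fold (all higher). Of 35 genes matched to the Calvin cycle, 12 passed with no minimum fold (all higher, median 0.23). The single call was g446 (1.07 ± 0.12), annotated as an N-methyltransferase of Rubisco and not itself a cycle enzyme, and 0.95 without VLC replicate 2. Of 42 genes of fatty acid synthesis and desaturation, 4 passed higher and 8 lower with no minimum fold, and the median was -0.11. The fatty acid desaturase g4967 was the extreme, with 133 and 105 FPKM in VLC against 188 in each HC library (log2 ratio -0.67 ± 0.11, limma adjusted p = 0.0012). Neither the 50 cytosolic ribosomal proteins (median -0.04) nor the 59 genes of DNA replication, histones and cell cycle (median -0.14) had a call. The 16 tested organelle translocators had none either (median -0.03), and their largest value was that of the plastid triose-phosphate translocator g1018 (0.74 ± 0.13, limma adjusted p = 0.0017). Amino acid and nitrogen transporters (17 tested, median -0.09) had no call.

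The 2 VLC libraries differed in the size of the response. Over the 146 higher genes the median log2 ratio to HC was 1.28 in VLC replicate 1 and 1.66 in replicate 2, and replicate 2 was above replicate 1 in 142 of them (97.3%), against 48.1% of all tested genes. Over the 20 lower genes the medians were -1.43 and -1.47. Since these calls rest on the same libraries, genes called at other times, in libraries not used at 6 h, were also read. Those libraries may come from the same cultures. The 709 tested genes called higher at 24 h had medians of 0.09 in VLC replicate 1 and 0.21 in replicate 2, with replicate 2 above in 549 (77.4%). The 481 called lower at 24 h had -0.09 and -0.18, with replicate 2 above in 85 (17.7%). The 49 called higher at 3 h had 0.80 and 1.22, with replicate 2 above in 42 (85.7%), and in 73.1% of the 26 that were not also called at 6 h. The 20 called lower at 3 h had replicate 2 above in 10. At 12 h the pattern was weaker and did not hold for lower genes. Replicate 2 was above in 60.3% of the 2056 genes called higher then and in 59.6% of the 228 called lower, which had medians of -0.20 in replicate 1 and -0.16 in replicate 2. The cytosolic ribosomal proteins, of which 46 of 50 were called lower at 24 h, stood higher in VLC replicate 2 than in replicate 1 in 2 of 50 at 6 h.

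**Figure D3:**
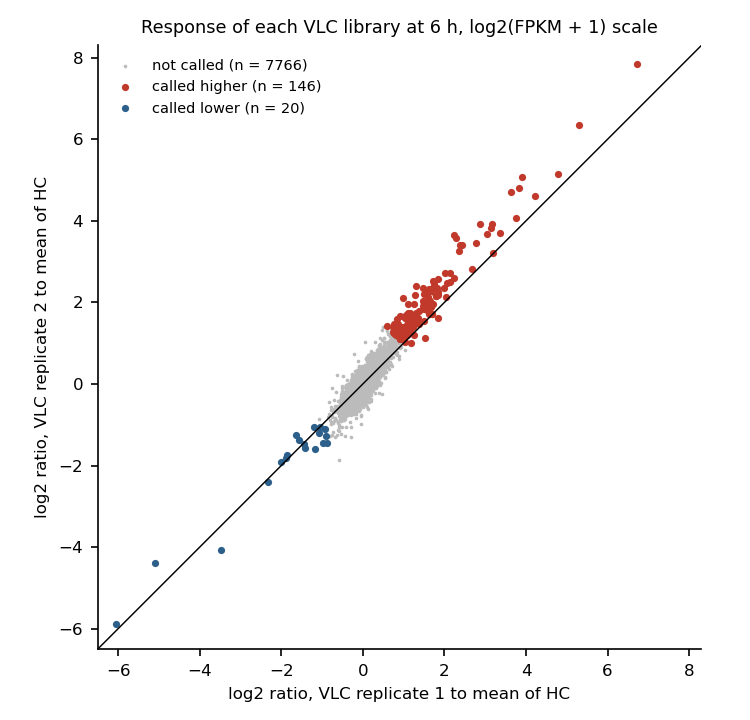
Log2 ratio to the mean of the HC libraries in VLC replicate 1 (horizontal) and VLC replicate 2 (vertical) for the 7932 tested genes at 6 h, with the line of equal response. The 146 genes called higher (red) lie mostly above the line, and the 20 called lower (blue) lie on both sides of it.

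The same difference showed in the spread. Across the 7932 tested genes the median absolute log2 difference between replicates was 0.097 in VLC and 0.056 in HC, and 12 genes differed at least 2-fold between the VLC libraries against 0 between the HC libraries. Of these 12, 10 had the higher level in VLC replicate 2 and were called higher, among them g6125, g5454, g4254, g9254, g8242 and g7153. The widest was g7154, the unannotated neighbour of g7153, with 9.22 FPKM in VLC replicate 1, 26.5 in replicate 2, and 1.30 and 1.03 in HC (log2 ratio 2.95 ± 0.30, limma adjusted p = 1.1e-05). The other two, the unannotated g5307 and g2926, were lower in replicate 2 and were not called. Most genes with so wide a VLC pair were thus called ones. Only 4 of the 146 higher genes had VLC replicate 1 above replicate 2, namely g617, g5321, g7729 and g8829, picked here after their values were seen, and g8829 had 22.1 and 18.6 FPKM in VLC against 4.98 and 5.83 in HC.

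Calls depended on which VLC library was used. With VLC replicate 1 left out 200 genes were higher and 33 lower, which included 145 of the 146 and 19 of the 20. With VLC replicate 2 left out 106 were higher and 16 lower, including 105 and 15. In all, 104 higher and 15 lower genes were called with either VLC library alone, which covers the 15 largest rises and the 10 largest falls. The lower genes lost without replicate 2 were g1620, g2473, g3195, g6089 and g7284. Leaving out HC replicate 1 gave 142 and 20, and leaving out HC replicate 2 gave 140 and 18. The model gives every group the same spread for a gene, so the wider VLC pair is not given wider errors. VLC replicate 2 had the lower relative depth (0.812 against 1.21), and the part of depth, sampling or culture in its larger response was not tested.

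Relative to 3 h the response had grown, and most of it lasted. Of the 146 higher genes, 23 were also called higher at 3 h (15.8%, against 0.701% of genes tested then), 113 at 12 h (77.4%, against 27.6%) and 100 at 24 h (68.5%, against 11.2%). At 12 h the median gene stood at a log2 ratio of 0.585, and with that taken off 78 were called (53.4%, against 8.85%). Their median log2 ratio was 0.44 at 3 h, 1.46 at 6 h, 1.79 at 12 h (1.20 once centred on the median gene) and 1.38 at 24 h. Tested as a difference of log2 ratios of at least 1, the value at 6 h was above that at 3 h in 75 of the 146 genes and below it in 2, where 1.1% of all genes were above and 0.251% below (1.35% in all). Against 12 h it was above in 25 and below in 25, where 4.01% of all genes were above and 26.4% below (30.4% in all). Against 24 h it was above in 34 and below in 31, where 4.97% were above and 9.19% below (14.2% in all). Since the 146 were chosen at 6 h, these counts lean towards larger values at 6 h. No higher gene was called lower at another time on values not centred. The higher genes g200 and g2187, picked after their values were seen, stood at -0.84 and -0.81 at 12 h (limma adjusted p = 5.6e-05 and 3.4e-05). Once centred on the median gene these 2 values were -1.43 and -1.40. Of the 20 lower genes 8 were called lower at 3 h, 14 at 12 h and 9 at 24 h, against 0.268%, 4.36% and 5.95% of genes tested at those times.

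The VLC/HC ratio of some genes peaked at 6 h. A set of 11 had a log2 ratio at 6 h above that at each other time by at least 1 with an adjusted p passing in each contrast, among them g434, g4254, g7851, g10403 and the neighbours g1629, g1630 and g1631. The factor g434 had log2 ratios of 2.06 at 3 h, 4.42 at 6 h, 2.36 at 12 h and 3.06 at 24 h. The gene g4254 had 1.02, 7.30, 6.00 and 4.65 at these times. The gene g10403 had 0.20, 3.20, 1.24 and 0.99, and was under the FPKM minimum at the other times, where it was not tested. In all 15 higher and 2 lower genes were called at 6 h and at no other time, of which 7 higher genes and 1 lower gene were not tested at 1 or more of those times. Among the 15 were g1804 of the iron-sulfur genes and g643, annotated as a calcium ATPase and chosen after its values were seen, with 44.0 and 58.4 FPKM in VLC against 22.1 and 21.0 in HC. Carbonic anhydrase g6125 went from a log2 ratio of 4.17 at 6 h to 3.33 and then 5.02 at 12 and 24 h, and the last value did not pass as different from that at 6 h (limma adjusted p = 0.052). The PPDK gene g5453 had 2.82, 2.49 and 4.70 at these times, and g5454 had 2.89, 2.52 and 4.68. Both were higher at 24 h than at 6 h (limma adjusted p = 0.00026 and 0.00034). Their values at 12 h did not pass as different from those at 6 h (limma adjusted p = 0.37 and 0.29). Relative to the median gene the 12 h values were 1.91 for g5453, 1.94 for g5454 and 2.75 for g6125.

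The courses of the photorespiratory and iron-sulfur genes were not compared by a test. Glycolate oxidase g640 went from 0.26 at 3 h to 1.99, 2.76 and 1.80 at 6, 12 and 24 h, and g3637 from 0.29 to 2.37, 2.99 and 1.6. Members of the photorespiration list called higher numbered 0 of 10 tested at 3 h and 3 of 10 at 6 h. They numbered 10 of 11 at 12 h (4 after centring) and 3 of 11 at 24 h. Those of the iron-sulfur list numbered 1, 5, 6 (3 after centring) and 4, of 11 tested at each time. Over all genes tested at these times 0.701%, 1.84%, 27.6% (8.85% after centring) and 11.2% were called higher. The assembly protein g3885 had its largest log2 ratio at 6 h, with 0.67, 1.69, 1.32 and -0.13 in time order.

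**Figure D4:**
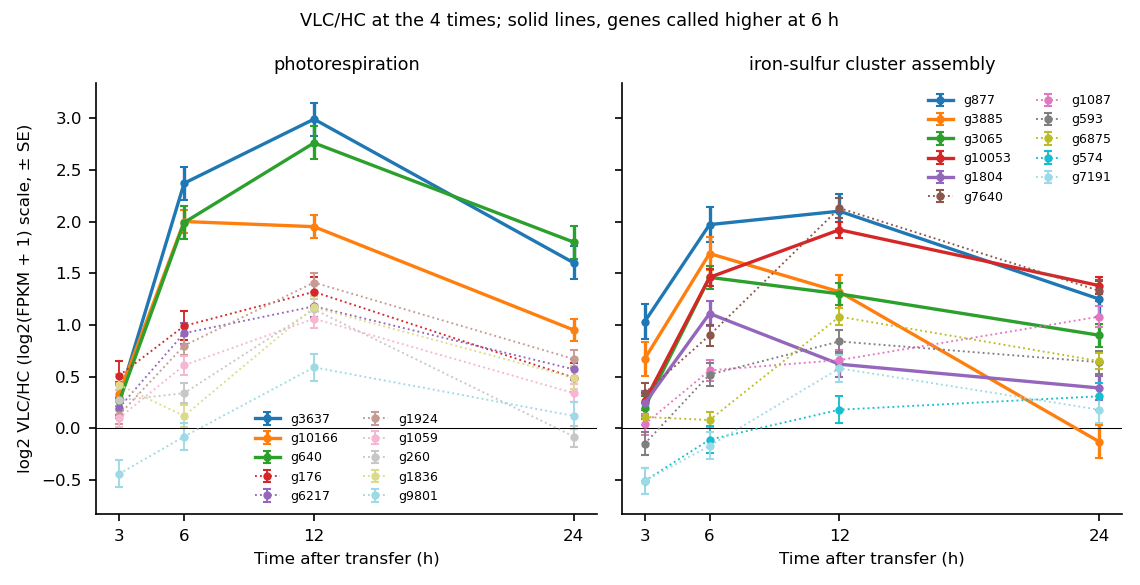
Log2 VLC/HC (± SE of the fit) at 3, 6, 12 and 24 h of the tested photorespiration genes (left) and iron-sulfur cluster assembly genes (right), with solid lines for genes called higher at 6 h. Nearly all lines rise from 3 to 6 h, most photorespiration lines are highest at 12 h, and g3885, g3065 and g1804 are highest at 6 h. The 12 h values are not centred on the median gene, which stood at 0.585 then. Once the 12 h values are centred, the photorespiration genes g10166 (1.37), g176 (0.74), g6217 (0.59) and g1059 (0.47) are lower at 12 h than at 6 h as drawn. So are the iron-sulfur genes g877 (1.52) and g10053 (1.34). The photorespiration genes g640 (2.17), g3637 (2.40), g260 (0.57) and g1836 (0.58) stay higher, and g1924 (0.83) and g9801 (0.0) only just do.

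Levels at 0 h show how each arm stood. Both arms are compared with the same 0 h libraries, so their values are given side by side only. Of the 146 higher genes 106 were above 0 h in VLC and 5 below it, while in HC 29 were above 0 h and 30 below it. The median log2 change from 0 h was 2.12 in VLC and 0.19 in HC. Over all tested genes 21.1% were called above 0 h in VLC and 20.5% in HC, and 16.5% and 15.7% below. Glycolate oxidase g640 had 192 and 200 FPKM at 0 h, 168 and 251 in VLC and 52.2 and 50.1 in HC, so VLC stood near the starting level and HC well under it. HC was also well under the 0 h level for g3637, with 213 and 228 FPKM at 0 h, and for g5846, with 83.5 and 86.1. Carbonic anhydrase g6125 had 324 and 330 FPKM at 0 h, between the groups. The factor g434 had 7.87 and 5.78 FPKM at 0 h, below both groups, and g877 had 22.6 and 20.4, also below both. The ferredoxin component g2456 had 16.9 and 18.7 FPKM at 0 h, also between the groups, with log2 changes of -1.96 in VLC and 4.00 in HC. Of the 20 lower genes 14 were below 0 h in VLC and 7 above it in HC.

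Called genes often lay side by side. On the scaffolds, 39 of the 146 higher genes were next to another higher gene (26.7%, against 3.04% of all tested genes), and 4 of the 20 lower genes were next to another lower one (against 0.441%). There were 19 such runs holding 43 genes, each run of a single direction, and 4 runs had 3 or more genes. Gene models within a run did not overlap in the tables. The libraries did not keep strand, so reads running past the end of a gene into its neighbour cannot be told apart from that neighbour's own. The gap within runs had a median of 160 bases, against 124 between all neighbouring models.

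**Figure D5:**
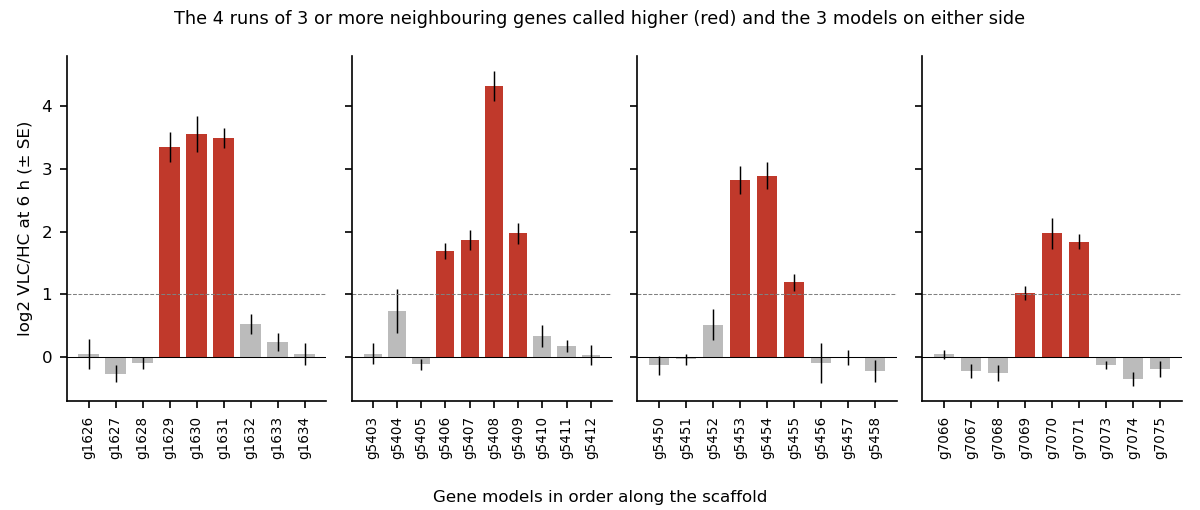
Log2 VLC/HC at 6 h (± SE of the fit) along the 4 runs of 3 or more neighbouring genes called higher (red) and the 3 gene models of the tables on either side of each (grey), with the 2-fold line dashed. The red bars stand at 1.02 to 4.31, and all grey bars are below 1.

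The longest run held 4 genes on scaffold 182, from 129688 to 142843. In order they were g5406 (log2 ratio 1.69 ± 0.12), g5407 (1.86 ± 0.16), g5408 (4.31 ± 0.24) and the plasma membrane hydrogen ATPase g5409 (1.97 ± 0.17). The first of them, a hypothetical protein, was the most abundant, with 1068 and 1450 FPKM in VLC against 383 and 388 in HC. On the same scaffold, from 273637 to 281609, lay the PPDK genes g5453 and g5454 with the unannotated g5455 (1.19 ± 0.13). The 3 unannotated genes on scaffold 43 from 338853 to 343818 moved as one, g1629 (3.35 ± 0.24), g1630 (3.55 ± 0.28) and g1631 (3.49 ± 0.16), and g1629 had 323 and 500 FPKM against 38.5 in each HC library. On scaffold 252 from 157976 to 163007 came the alanyl-tRNA synthetase g7069 (1.02 ± 0.11), the unannotated g7070 (1.97 ± 0.24) and the heat shock transcription factor g7071. The call of g7069 was lost without VLC replicate 2 (log2 ratio 0.92) and without HC replicate 2 (0.89). Pairs included the NAC-type factor g1286 with g1285, g4290 with g4291 and the kinase g7153 with g7154.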

How the data were processed

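N. oceanica IMET1 mRNA of the 2 VLC and 2 HC libraries at 6 h was read from the deposited tables, with all 18 libraries in the model. The authors made poly(A), non-strand-specific paired libraries, aligned reads to the IMET1 genome with TopHat (2.0.4), left out reads mapped to more than one location and computed FPKM with Cufflinks (2.0.2 in the submitters' processing notes). The deposited values are FPKM per gene, with no counts, so no count test was run. The assembly version is not given in the sources used here. Log2(FPKM + 1) was fitted with limma 3.58.1 (R 4.3.3), one coefficient for each of 9 groups, a variance trend, 9665 genes of at least 1 FPKM in a group, and Benjamini-Hochberg adjustment over genes of at least 10 FPKM in either group compared. Residual degrees of freedom were 9. Tables were handled in Python 3.11.15 with pandas 2.3.3. The fit was tested on simulated data with known changes. Alternatives are in the closing section.

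Named were the 15 largest rises and 10 largest falls, every called member of 23 gene lists (8 from the study's genes, the others by words in the annotation) or the largest change of lists with none, all tested carbonic anhydrases, bicarbonate transporters, genes listed under LCIA, C4-like and photorespiration genes, runs of 3 or more and the gene with the widest VLC pair. Other genes were named after their values were seen. Members, lists and tests were chosen with earlier results of these data known. Columns of the authors' own comparisons were not used. Neighbours are consecutive models of a scaffold in the tables.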

Additional observations from a re-analysis of the deposited data

Results flagged for a closer look

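The difference between VLC and HC changed with time by an interaction term of the same limma fit. The log2 ratio at 6 h differed by at least 1 from that at 3 h in 113 genes (92 with the larger value at 6 h), from that at 12 h in 2709 genes and from that at 24 h in 1233 genes. The 12 h count includes the general displacement at 12 h given with the time courses.

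Of the lower genes, 3 were higher in VLC at a later time. The unannotated g4213 had a log2 ratio of -1.38 at 6 h and 1.01 at 12 h, a difference of -2.39 ± 0.22 (limma adjusted p = 1e-06), and relative to the median gene its value at 12 h was 0.42. The gene g544, listed under LCIA, had -1.48 at 6 h and 1.26 at 24 h, a difference of -2.74 ± 0.14 (limma adjusted p = 2e-09), where VLC at 24 h had 87.8 and 87.6 FPKM against 37.5 and 34.6. The copper-translocating ATPase g2283 had -1.12 at 6 h and 2.5 at 24 h, a difference of -3.62 ± 0.16 (limma adjusted p = 8.1e-10), where VLC at 24 h had 60.5 and 61.2 FPKM against 10.8 and 9.20. In each the replicates at both times lay on the same side.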

How the results depend on the processing

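The counts of 146 higher and 20 lower genes ran from 106 to 200 and from 16 to 33 when 1 library at 6 h was left out, the top of both ranges being without VLC replicate 1. With no minimum fold they were 621 and 346, and at 1.5-fold 326 and 75. Other settings (relative to the median gene, quantile normalization, pseudocount 0.1, FPKM of at least 1 or no filter, the 4 libraries alone, no variance trend, array weights) gave 146 to 168 and 18 to 22. The replicate numbers did not pair the libraries (correlation of deviations of VLC and HC -0.005 at 6 h and -0.005 to 0.024 over the times). VLC at 6 h correlated 0.198 with VLC at 3 h and -0.177 with 0 h. With a replicate block the counts were 146 and 19, or 146 and 22 with the 4 libraries alone. Genes differing between 6 h and 3 h numbered 79 to 239 with 1 library left out, the 239 without HC replicate 2 at 3 h. Between 6 h and 12 h there were 2709, and 1421 relative to the median gene or 1137 after quantile normalization, and 2634 to 2801 with 1 library left out. Between 6 h and 24 h they lay at 1197 to 1303. Of 62 named genes that were called, 53 kept the call under each alternative with a fold minimum of 2, and 4 of 31 named genes not called passed under some alternative. None changed direction. Genes under 10 FPKM in both groups were not judged, and without counts per gene the counting error of low genes such as g4254 in HC was not computed.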

Other observations

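The following called genes belong to none of the lists above and were picked after their values were seen, so they stand as single values. Ornithine cyclodeaminase g4068, which forms proline from ornithine in bacteria, had 115 and 190 FPKM in VLC against 31.2 in each HC library (log2 ratio 2.20, limma adjusted p = 8.6e-07). Alanine aminotransferase g6936, which exchanges amino groups between alanine and glutamate, had 122 and 185 FPKM against 53.7 and 55.8 (1.44, limma adjusted p = 9.3e-06). The oxoglutarate/malate translocator g9452 had 163 and 196 FPKM against 66.2 and 68.3 (1.40), and the mitochondrial citrate carrier g182 had 95.8 and 131 against 40.6 and 39.5 (1.46). Geranylgeranyl reductase g4727, which makes the phytol tail of chlorophyll, was abundant, with 917 and 1047 FPKM against 451 and 459 (1.10). The ferredoxin g4849 had 28.5 and 34.1 FPKM against 8.24 and 7.69 (1.84), and its log2 ratio at 3 h was larger, 4.37. The general substrate transporter g9143 lies beside g9142 in number and had 209 and 247 FPKM against 92.5 and 90.3 (1.30). The sulfate transporter g3195 was lower, with 12.4 and 8.02 FPKM against 23.1 and 23.9 (-1.16).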
